A study of Oryza sativa with 2 samples.

Results

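Of the 10 rice genes of iron uptake and storage named for study, 8 had a row in both deposited tables and are described here, among 37896 locus rows in all. They were chosen by locus ID: the nicotianamine synthases NAS1, NAS2 and NAS3, the aminotransferase NAAT1, the exporter TOM1, the regulator IRO2, and the ferritins FER1 and FER2. The other two, IRT1 (LOC_Os03g46470) and YSL15 (LOC_Os02g43410), had no row and were not analysed here. The measurements come from poly(A) RNA of whole seedlings, 3 weeks old, of 93-11, an indica rice cultivar. There was 1 group, wild-type plants on Yoshida nutrient solution under days of 10 h light and 14 h dark at 800 μmol m-2 s-1, sequenced as replicate 1 and replicate 2. No mutant, treatment or iron-starved plant was included, so the data give levels, their order and their spread between the libraries, and no contrast between conditions. Nothing says that the replicates came from separate plants, so their spread may be partly technical.

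Grasses take up iron by chelation. Nicotianamine synthase makes nicotianamine from S-adenosylmethionine, the aminotransferase NAAT carries it on towards deoxymugineic acid (DMA), and TOM1 exports DMA from the root, where it binds ferric iron. YSL15 then imports the ferric chelate, and rice also takes up ferrous iron through IRT1. The bHLH transcription factor IRO2 activates several of these genes when iron is scarce, and nicotianamine itself also moves metals within the plant. Ferritins are protein shells, found mainly in plastids, that store iron and keep it from generating oxygen radicals; their transcripts are known to rise with iron supply.

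Values are FPKM, fragment numbers divided by transcript length and by the library's mapped fragments, so levels can be compared between genes. All FPKM values together came to 741624 for replicate 1 and 668305 for replicate 2. Fragment counts are not part of the tables, the depth is therefore unknown, and no counting interval can be given. Transcripts of the storage genes and of NAAT1 were the most abundant of the 8, the NAS genes and IRO2 were intermediate, and TOM1 was near 0. A transcript level of at least 1 FPKM counted as detected. By this rule 7 of the 8 genes were detected in both libraries, and TOM1 in neither. Over all loci the share detected in both libraries was 53.1%. At 10 FPKM or more in both libraries stood 4 of the 8, FER1, FER2, NAAT1 and NAS3, against 24.6% of all loci. Because whole plants were sequenced, a low level can reflect few expressing cells, such as cells of 1 organ, or little RNA in each, and these cannot be told apart.

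**Figure D1:**
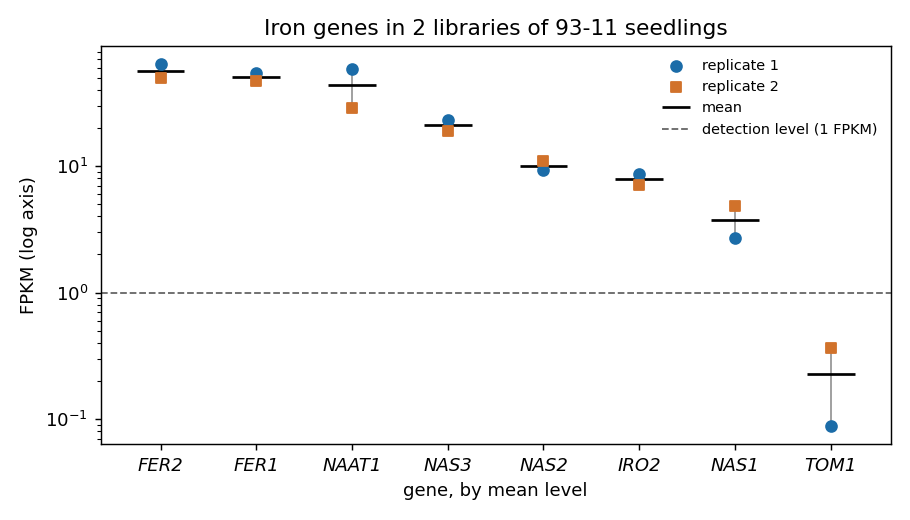
FPKM of each gene (log axis) in replicate 1 (circles) and replicate 2 (squares) of 93-11 seedlings, with the mean of the 2 libraries (black bar) and the detection level of 1 FPKM (dashed). FER2, FER1 and NAAT1 lie highest and overlap; TOM1 is below the detection level in both libraries.

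The ferritin genes stood highest of the 8 by mean, at nearly the same level. FER2 (LOC_Os12g01530, chromosome 12) had 64.0 FPKM in replicate 1 against 49.5 in replicate 2, a mean of 56.8 ± 10.3 (SD, n = 2). FER1 (LOC_Os11g01530, chromosome 11) had 54.0 FPKM in replicate 1 against 47.3 in replicate 2, a mean of 50.6 ± 4.74 (SD, n = 2). FER2 was the higher of the pair in each library, but the ranges of the genes over the libraries overlapped. The FER1 to FER2 ratio was 0.843 in replicate 1 and 0.955 in replicate 2. Both lay high among all loci, FER2 at rank 1977 by mean level and FER1 at rank 2230. Their means were 5.49 and 4.89 times the median of the loci detected in both libraries, 10.4 FPKM. The IDs of FER1 and FER2 carry the same locus number on chromosomes 11 and 12, and the proteins are known as closely related copies. How fragments that match both copies were assigned is not stated in the labels or headers, so the split between them is uncertain. Their sum does not depend on that split. It would still be off if such fragments were dropped or counted at both loci. The sum was 118.0 FPKM in replicate 1 against 96.8 in replicate 2, which made up 53.5% and 57.7% of the summed FPKM of the 8 genes.

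Among the genes of DMA synthesis, NAAT1 was the most abundant and also the one that differed most between the libraries in FPKM units. NAAT1 (LOC_Os02g20360, chromosome 2), which transfers the amino group from nicotianamine, had 58.8 FPKM in replicate 1 against 28.9 in replicate 2, a mean of 43.9 ± 21.1 (SD, n = 2). In replicate 1 it exceeded FER1 and lay below FER2, whereas in replicate 2 it lay below both ferritins. Its rank among all loci was 1934 in replicate 1 and 3981 in replicate 2. It was above NAS3, the next gene by mean, in each library, by 2.56 times in replicate 1 and 1.53 times in replicate 2.

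The NAS genes stood in the same order in both libraries, NAS3 above NAS2 above NAS1, with ranges that did not overlap. NAS3 (LOC_Os07g48980, chromosome 7) had 23.0 FPKM in replicate 1 against 18.9 in replicate 2, a mean of 20.9 ± 2.92 (SD, n = 2). NAS2 (LOC_Os03g19420, chromosome 3) had 9.26 FPKM in replicate 1 against 10.9 in replicate 2, a mean of 10.1 ± 1.18. NAS1 (LOC_Os03g19427, chromosome 3) had 2.72 FPKM in replicate 1 against 4.80 in replicate 2, a mean of 3.76 ± 1.47. In earlier work on rice, NAS1 and NAS2 were described as induced by iron deficiency in roots and shoots, and NAS3 as repressed by it in leaves. That description of NAS3 covers leaves only, whereas whole seedlings were sequenced here. Whether the order of the NAS genes relates to iron supply was not tested.

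NAS1 and NAS2 lie next to each other by locus number, with 0 listed rows between them. They are known as very similar genes, so the division of fragments between NAS1 and NAS2 is uncertain in the same way as for the ferritins. Their sum was 12.0 FPKM in replicate 1 against 15.7 in replicate 2, and NAS3 alone was 1.92 and 1.20 times that sum. NAS3 thus held 65.8% of the summed NAS level in replicate 1 and 54.6% in replicate 2. Shared fragments that were dropped or counted at both loci would change the NAS1 plus NAS2 sum, and with it these shares. The sum over NAS1, NAS2 and NAS3 was 35.0 FPKM in replicate 1 against 34.6 in replicate 2. This total was nearly equal between the libraries as deposited, with NAS3 higher in replicate 1 and NAS1 and NAS2 higher in replicate 2. The NAAT1 level was 1.68 times the NAS sum in replicate 1 and 0.836 times in replicate 2, so the order of this step and the preceding one changed with the library.

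The regulator IRO2 was detected at a moderate level. IRO2 (LOC_Os01g72370, chromosome 1) had 8.61 FPKM in replicate 1 against 7.11 in replicate 2, a mean of 7.86 ± 1.06 (SD, n = 2). Its mean exceeded that of 68.4% of all loci, a set that includes loci listed at 0. Among loci detected in both libraries, its mean exceeded only 40.9% and was 0.759 times their median. It lay under NAS2, by a factor of 1.08 in replicate 1 and 1.54 in replicate 2, and above NAS1 in each library. The ferritin sum was 13.7 times the IRO2 level in replicate 1 and 13.6 times in replicate 2.

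TOM1, the DMA exporter, was the only transporter of the group with a row. TOM1 (LOC_Os11g04020, chromosome 11) had 0.0879 FPKM in replicate 1 against 0.364 in replicate 2, a mean of 0.226 ± 0.195 (SD, n = 2). Both values were above 0 but under the detection level, and the mean exceeded that of 33.3% of all loci. Among loci above 0 in at least 1 library, the TOM1 mean exceeded 9.56%. NAS1, the next gene above it, was 31.0 times higher in replicate 1 and 13.2 times in replicate 2. The libraries differed 4.14-fold in TOM1 FPKM, but at such values few fragments can lie behind each number, and without counts the size of that difference cannot be judged. No statement on iron import follows for the seedlings, since IRT1 and YSL15 were not analysed here.

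**Figure D2:**
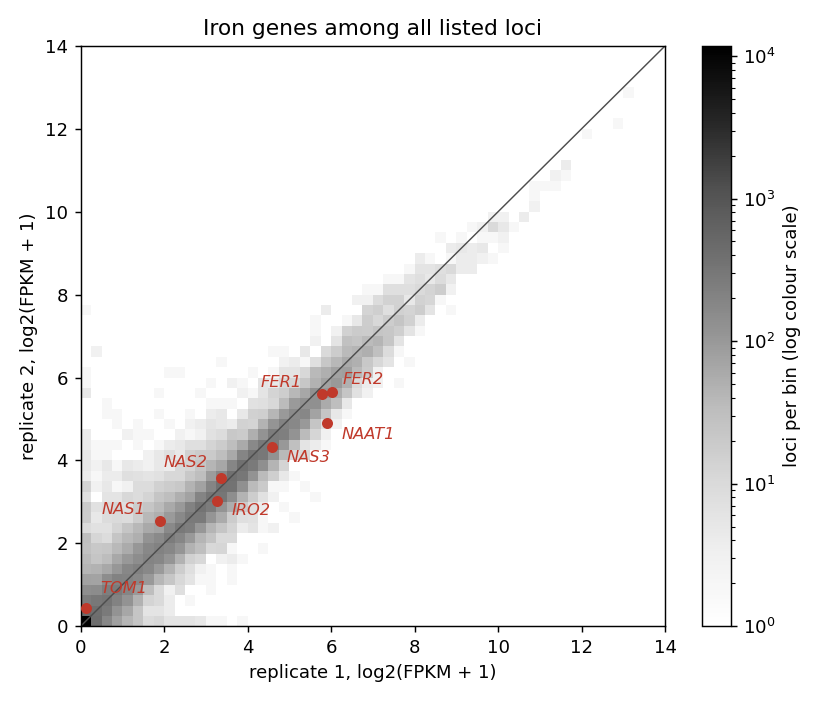
All 37896 locus rows by log2(FPKM + 1) in replicate 1 (horizontal) and replicate 2 (vertical), as deposited, shaded by the number of loci in each bin (log colour scale), with the 8 iron genes in red and the line of equal values. NAAT1 lies to the right of the line and NAS1 above it, both inside the cloud of other loci.

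Among the more abundant of these genes, none differed between the libraries by more than 2-fold under the rule used. After scaling to the same total, 5 of the 8 genes had a mean of at least 10 FPKM, and 0 of these 5 differed more than 2-fold on FPKM + 1. Over all loci of that level 6.52% did, so 0 of 5 is not a result particular to these genes. The count is a description, since 1 library against 1 has no replicate check and gives no test. NAAT1 came closest, with a log2 ratio of replicate 1 over replicate 2 of 0.85 after scaling. As deposited, its FPKM values differed 2.03-fold, and the log2 ratio on FPKM + 1 was 0.998, against a limit of 1 for 2-fold. Among loci whose mean reached 10 FPKM, 90% differed by less than 0.78 on this log2 scale, and the median difference was 0.23. At this scaling NAAT1 lay beyond that 90% value, while FER1 at 0.04, NAS3 at 0.13 and FER2 at 0.22 lay under the median difference. Under the other scalings tried, FER1 was at 0.14 to 0.19, NAS3 at 0.23 to 0.27 and FER2 at 0.32 to 0.36. The spread over all loci was not computed for those scalings, so the place of these genes within it is not known there.

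Below a mean of 10 FPKM, NAS1 had a log2 ratio of -0.76 and IRO2 of 0.11 after scaling to the same total. The median difference of loci between 1 and 10 FPKM was 0.28, and 90% lay under 1.07. NAS2, at a mean just above 10 FPKM, had -0.35. The genes did not move together. FER1, FER2, NAAT1, NAS3 and IRO2 were higher in replicate 1, and NAS1, NAS2 and TOM1 were higher in replicate 2. This division of 5 and 3 was obtained under each of the 4 scalings tried. The choice of pseudocount could not alter it, since adding the same number to both values keeps their order. The share of all loci above 0 that were higher in replicate 1 did move with the scaling, from 40.9% at the same total to 53.0% as deposited, so 5 of 8 is not a result particular to these genes. The median log2 ratio over the 8 genes was 0.08 after scaling to the same total, against -0.07 over all loci above 0 in at least 1 library. As deposited these medians were 0.22 and 0.03.

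**Figure D3:**
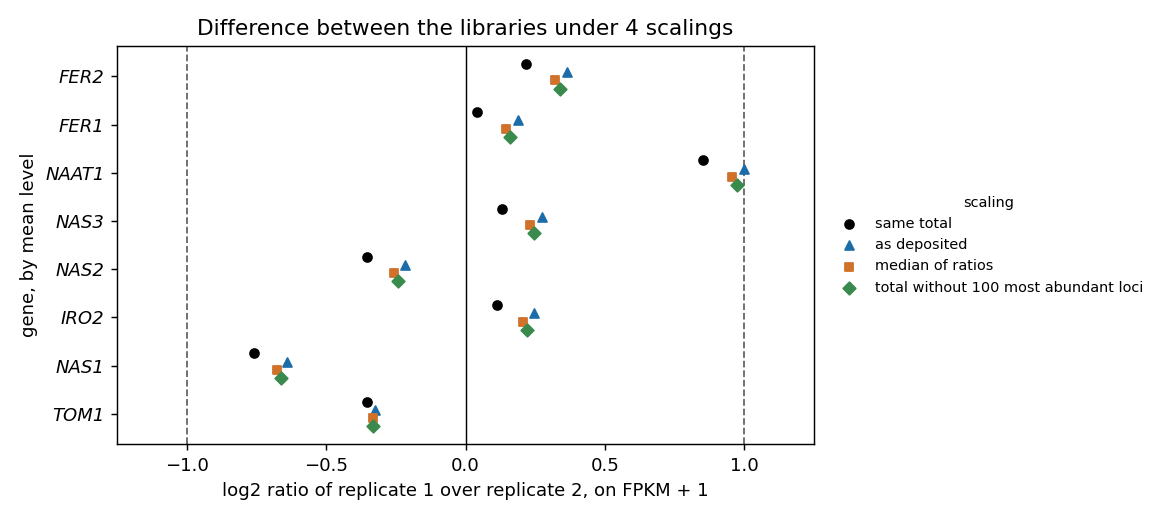
Log2 ratio of replicate 1 over replicate 2 on FPKM + 1 for each gene under 4 scalings of the libraries; dashed lines mark 2-fold. NAAT1 approaches the 2-fold line with the values as deposited (0.998) and lies at 0.85 after scaling to the same total; NAS1, NAS2 and TOM1 lie below 0 under each scaling shown.

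Position along the chromosomes gave a further view of the levels. For each gene, the 5 listed loci on each side by locus number were taken, as 10 neighbours in all. FER1, FER2, NAAT1 and NAS3 each stood above all 10 of their neighbours, so 4 of the 8 genes did. Over all loci with 5 listed loci on each side the share was 8.82%, and over those at 10 FPKM or more in both libraries, as these 4 genes are, it was 32.2%. High loci thus met this criterion more often than loci at large, and nothing beyond the level of the 4 genes is read from their position. Around FER2 the highest neighbour had a mean of 14.1 FPKM, and around FER1 it had 12.0 FPKM. Around NAAT1 the highest had 15.1 FPKM and 3 of the 10 were listed at 0 in both libraries. Around NAS3 the highest had 11.5 FPKM. NAS2 had 4 neighbours above it, IRO2 had 5, TOM1 had 7 and NAS1 had 8, NAS2 among the last. Over the 70 distinct neighbours that were not iron genes of this group, 71.4% were detected in both libraries, against 53.1% of all loci. Their median level was 5.30 FPKM. By library, it was 5.47 in replicate 1 and 5.76 in replicate 2, against 1.77 and 2.09 FPKM over all loci. This difference was not tested, and the share moved with the number of neighbours taken. The distances in bases behind these positions are not in the tables.

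**Figure D4:**
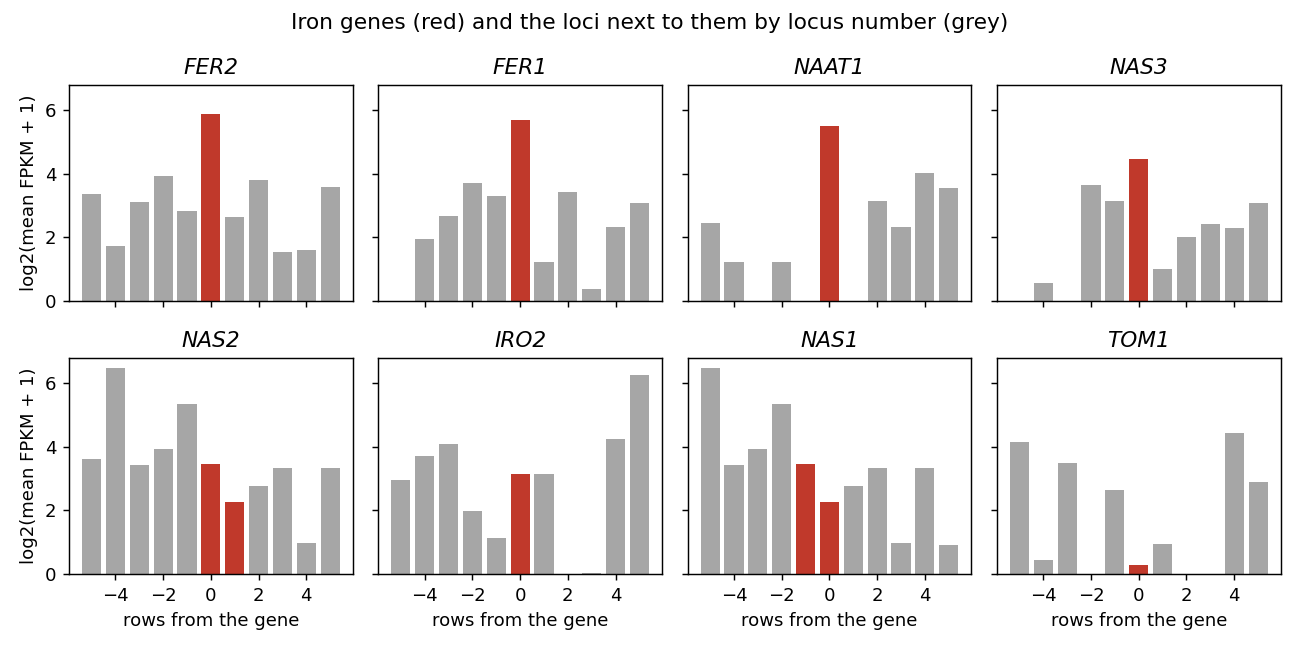
Mean level, log2(mean FPKM + 1), of each iron gene (red, at position 0) and of the 5 listed loci on each side by locus number (grey; the adjacent NAS1 or NAS2 is also red). FER2, FER1, NAAT1 and NAS3 exceed each of their 10 neighbours; TOM1 is lower than 7 of its neighbours.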

How the data were processed

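Per the file headers, each deposited table holds FPKM by locus for a single library. The submitters' processing notes name TopHat2 and Cufflinks with no version. For the genome build, annotation, strand setting and treatment of fragments that match several loci, nothing is given in the sources used here. IDs have the form of a japonica annotation, so divergence of 93-11 could lower a value. Both tables list the same 37896 rows.

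The 8 genes were found by exact ID. Names come with the list of members. The supplied RefSeq table (assembly ASM3414082v1) pairs 1 of 37895 IDs with a gene. By symbol alone, it puts NAS1, NAS2, NAS3 and NAAT1 on the chromosome of their ID, lists TOM1 on chromosome 2 and an IRO2 synonym on chromosome 3, and FER1 and FER2 were not matched. It paired none of 30 other iron genes and 16 tissue markers, listed by symbol, with an ID, so neither list was run and the tissue label was not checked. Members and lists were chosen with earlier results of these data known.

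Means and SDs are over 2 libraries. Ratios between libraries used log2(FPKM + 1), after scaling to the same total, which understates the change of low genes. All 8 genes are named; no most-alike genes were sought, since 2 libraries of 1 group give no pattern. The planned sum of 8 uptake, synthesis and regulator genes covers the 6 with a row. The call of loci apart was tested on simulated data, where it recovered 99.5% of 200 loci changed 4-fold. Such a change is well past the 2-fold limit, so recovery of changes near 2-fold was not tested, nor were false calls. Software: pandas 2.3.3, numpy 2.4.6 and matplotlib 3.10.9 under Python 3.11.15.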

Additional observations from a re-analysis of the deposited data

How the results depend on the processing

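No paired analysis was possible because both libraries belong to the same group. The number of genes detected in both libraries was 7, stayed within 1.5 times of it at thresholds of 0.1, 0.5 and 5 FPKM, under both scalings and in each library alone (7 to 7), and was 4 at 10 FPKM. Of the 5 genes with a mean of at least 10 FPKM, none was apart by more than 2-fold under the scalings and pseudocounts tried singly, or by 4-fold. With a pseudocount of 1, none was among the 7 genes with a mean of at least 1 FPKM or among all 8. At that pseudocount, values under 1 FPKM, such as those of TOM1, cannot differ by 2-fold. NAS1, at -0.76 with a pseudocount of 1, was at -0.94 and -0.97 with pseudocounts of 0.1 and 0.01, close to the 2-fold limit. At 1.5-fold, 1 gene was apart, NAAT1, beside 16.4% of all loci of its level. With the values as deposited and a pseudocount of 0.1, a pair of choices made after seeing the data, NAAT1 was again the 1 gene apart, beside 6.86%. The ratio of the ferritin sum to the sum of the other 6 genes was 1.26, and 1.15 to 1.36 in the libraries alone. The FER1 to FER2 ratio ranged from 0.843 to 0.955, NAS1 to NAS2 from 0.294 to 0.440, and NAS3 to NAS1 plus NAS2 from 1.20 to 1.92. The TOM1 log2 ratio, below the level minimum, was -0.35, and with pseudocounts of 0.1 and 0.01 it was past 2-fold, at -1.40 and -2.07. The neighbours' median level was 5.57 FPKM with 2 loci on each side and 4.66 FPKM with 10. The share detected in both libraries was 67.9% and 63.6% with these numbers of loci. No log2 ratio changed sign with the scaling, and a pseudocount cannot change a sign. The sizes of small ratios did move with the scaling. At the same total FER1, NAS3 and IRO2 were at 0.04, 0.13 and 0.11, and as deposited at 0.19, 0.27 and 0.24. Without fragment counts, the precision of the TOM1 values is unknown.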
